A study of Mus musculus with 4 samples.

Results

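*Clca1*, *Chil3*, *Bpifb1*, *Muc1*, *Muc4*, *Muc5b*, *Muc20*, *Agr2*, *Tff3* and *Pigr* code for mucins, secreted proteins and helpers of secretion that are best known from mucosal epithelia. They were followed through cultures of mouse ureters with and without *Pparg* and with and without an agonist of sonic hedgehog (SHH) signaling. The 10 genes were taken by their names among the 29924 gene names of the array, where 14 of the 39429 probes carry one of them. *Clca1* and *Chil3* were chosen on their large falls with purmorphamine on these same arrays, so their values are given without a test. Of the 10 genes, 8 passed a filter on dim probes, which asks that a probe be well above background in the male and female pool of some group, and *Muc5b* and *Tff3* did not.

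In *Pparg-cKO* animals (Pax2-cre/+; *Pparg* fl/fl), a Cre expressed under *Pax2* control deletes exons 2 and 3 of *Pparg*, the gene of a fatty acid-activated nuclear receptor, in the ureteric epithelium. Control animals were littermates without Cre and carried the genotype label *Pparg* (fl/?), which does not give the other allele. All animals were of the NMRI strain. Ureters were taken at P0 (the day of birth) and kept on membranes for 8 days, either with the solvent DMSO or with 2 µM purmorphamine, an activator of the SHH signal transducer Smoothened. The RNA came from pools of ureters of 1 sex, and the size of the pools is not given in the sources used here. Each of the 4 groups therefore held 1 male pool (replicate 1) and 1 female pool (replicate 2), and sex, dye orientation and replicate number cannot be told apart. Each array carried the DMSO pool and the purmorphamine pool of 1 genotype and 1 sex, and the genotypes never met on an array. With 2 pools per group, p-values measure the spread between these pools only.

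Mucosal epithelia cover themselves with mucus. Gel-forming mucins such as *Muc5b* are folded with the help of the endoplasmic reticulum protein *Agr2*, are secreted by goblet cells and are stabilized by trefoil peptides such as *Tff3*. Transmembrane mucins such as *Muc1*, *Muc4* and *Muc20* stay on the cell surface, the polymeric immunoglobulin receptor *Pigr* carries antibodies across the epithelium, and *Clca1* and *Bpifb1* are secreted into the mucus. The urothelium of the ureter is not a goblet cell epithelium and protects itself mainly with uroplakin plaques. The tissue carried the label's markers: all 14 urothelial markers and all 8 markers of smooth muscle and mesenchyme were well above background in all 8 pools, with *Krt5* and *Acta2* as the brightest.

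*Ptch1*, a direct target of SHH signaling, rose with purmorphamine by 1.00 on the log2 scale in control (adjusted p = 0.0445) and by 1.62 in *Pparg-cKO* pools (adjusted p = 0.0151). *Hhip*, another target, rose by 2.19 in *Pparg-cKO* pools (adjusted p = 0.0175) and differed by 1.33 in control pools (adjusted p = 0.0649), and *Gli1* differed by 1.34 in *Pparg-cKO* (adjusted p = 0.0539) and by 1.06 in control pools (adjusted p = 0.117). *Shh* itself, made by the epithelium, changed with *Pparg* loss by -2.93 with DMSO (adjusted p = 0.00251) and by -2.12 with purmorphamine (adjusted p = 0.0109). All adjusted p-values here are from limma, Benjamini-Hochberg adjusted over all genes tested, and a gene passed the test where this was under 0.05. The *Pparg* probe read 0.51 higher in *Pparg-cKO* pools with DMSO (adjusted p = 0.202) and 0.88 higher with purmorphamine (adjusted p = 0.0494). A transcript without exons 2 and 3 can still carry the probed stretch, so this probe does not check the deletion.

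**Figure D1:**
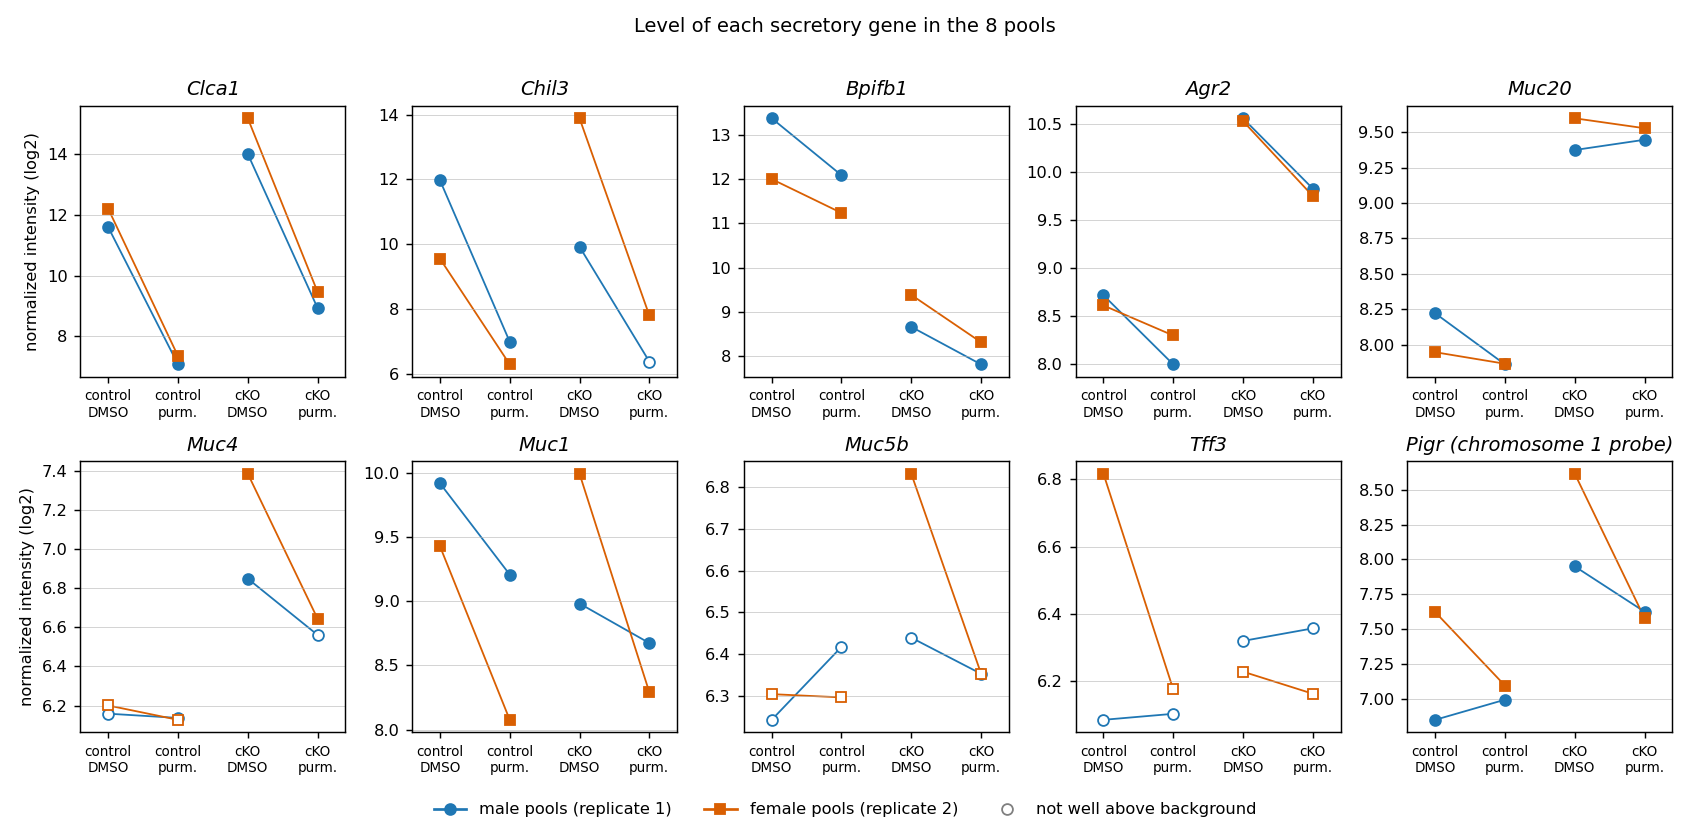
Normalized intensity (log2, y axis) of 1 probe per gene in the 4 groups (x axis; purm., purmorphamine; cKO, Pparg-cKO). Circles are male and squares female pools, lines join the 2 pools of an array, and open symbols mark pools where the probe was not well above background. Clca1 and Chil3 are lower in the purmorphamine pool of each of the 4 arrays, and Agr2 and Muc20 lie higher in each Pparg-cKO pool than in any control pool.

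*Clca1* codes for a secreted, self-cleaving metalloprotease of goblet cells. Its probe lies at chr3:144667558-144667617 (mm9, minus strand), beside *Clca2* in RefSeq. Its normalized intensity in the control DMSO pools was 11.59 (male) and 12.20 (female) on the log2 scale, and 7.08 and 7.36 with purmorphamine. In *Pparg-cKO* pools it was 13.99 and 15.17 with DMSO, and 8.94 and 9.47 with purmorphamine. All 4 purmorphamine pools thus lay below all 4 DMSO pools, and within each treatment both *Pparg-cKO* pools lay above both control pools. The fall with purmorphamine, on which the gene was chosen, was -4.51 and -4.84 on the male and female control arrays and -5.06 and -5.70 on the *Pparg-cKO* arrays, a mean of 25.5-fold in control and 41.6-fold in *Pparg-cKO* pools. With *Pparg* loss the level was higher by a mean of 2.69 with DMSO (6.44-fold; 2.40 and 2.97 in the male and female pairs) and of 1.98 with purmorphamine (3.95-fold; 1.85 and 2.11). These differences are not tested, because the comparisons share the pools on which the gene was chosen.

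Relatives of *Clca1* did not pass the test. Of 6 other CLCA genes on the array, 4 passed the filter on dim probes, and limma called 0 of these in any comparison (1 or 2 had an unadjusted p under 0.05 in each of the 4 comparisons between groups). Counts at an unadjusted p are to be read against all genes, of which 15.7% had one under 0.05 for *Pparg* loss in either treatment, 19.7% for purmorphamine in control and 22.2% in *Pparg-cKO* pools. The neighbour *Clca2* differed by -0.96 with purmorphamine in control (adjusted p = 0.11). *Clca3a2* differed by -1.73 in control (adjusted p = 0.0548) and -1.30 in *Pparg-cKO* pools (adjusted p = 0.0561), and the brightest relative, *Clca3a1*, by -0.04 and -0.02. The 2 probes of *Clca3a1* disagree. Its dimmer probe, not tested, was lower with purmorphamine on each array. That probe had means of 14.40 with DMSO and 12.67 with purmorphamine in control pools, and of 13.82 and 12.41 in *Pparg-cKO* pools. The 5 genes with the profile most like that of *Clca1* over the 8 pools, among 817 genes whose pools spanned at least 2 on the log2 scale, were *Exo1* (Pearson's r = 0.980), *E2f8* (0.965), *Aif1l* (0.964), *Reg1* (0.963) and *Pyhin1* (0.962). The 8 pools share arrays and dyes, so these values describe likeness only.

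*Chil3* (Ym1) is a chitinase-like protein made by alternatively activated macrophages and by neutrophils, and by some mucosal epithelia. Its probe lies at chr3:105950485-105950544 (mm9, minus strand). The control DMSO pools read 11.97 (male) and 9.55 (female), and the control purmorphamine pools 6.98 and 6.28. The *Pparg-cKO* DMSO pools read 9.92 and 13.89, and the *Pparg-cKO* purmorphamine pools 6.37 and 7.80, the first of these not well above background. The DMSO and purmorphamine pools did not overlap, while the genotypes did. The fall, on which this gene too was chosen, was -4.99 and -3.27 on the control arrays and -3.55 and -6.09 on the *Pparg-cKO* arrays. Against the lowest signal above background, the male *Pparg-cKO* array gave a fall of at least 11.1-fold. The 2 sexes disagreed on *Pparg* loss with DMSO, -2.05 against 4.34 (male and female pair), and the mean of 1.14 became -0.84 without the female *Pparg-cKO* array and -0.07 without the female control array. With purmorphamine the pairs gave -0.61 and 1.52. The neighbour *Chil4*, a close relative in sequence, differed by -2.51 with purmorphamine in control (adjusted p = 0.189) and by -3.28 in *Pparg-cKO* pools (adjusted p = 0.0952). Whether either probe also reads the other gene's RNA was not tested. The other tested members of the family, *Chil1*, *Chil6* and *Chid1*, did not pass the test in any comparison.

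The female *Pparg-cKO* DMSO pool, highest in *Chil3*, was also the pool with the highest summed intensity of neutrophil markers, though 4 of the 8 were not highest there. All 8 neutrophil markers were well above background in it, and their summed intensity was 64746 against 19664, 22046 and 27591 in the other 3 DMSO pools. *S100a9*, an abundant neutrophil calcium-binding protein, read 14.87 there and 6.16 to 8.79 in the other 3 DMSO pools, and *Ngp*, a neutrophil granule protein, read 10.17 there and was not well above background in the other 3. *S100a8*, its partner, read 13.33 against 7.36 to 9.17, and *Camp*, an antimicrobial granule peptide, 11.07 against 9.05 to 9.64. The other 4 did not stand out: *Ly6g* read 11.81 there against 12.15 in the male *Pparg-cKO* DMSO pool, *Elane* 9.27 against 9.84 and 9.33 in the control DMSO pools, *Mpo* 8.44, the lowest of the 4 DMSO pools, and *Csf3r*, the brightest over all pools, 14.02 against 13.72 to 14.36. Of the 7 tested neutrophil markers, limma called 0 in any of the 4 comparisons between groups, and 1 to 4 had an unadjusted p under 0.05, against 15.7% to 22.2% of all genes. The part of these cells in the *Chil3* values was not tested. On the arrays themselves, purmorphamine differed from DMSO in *S100a9* by -2.35 on the male control array and by -1.07 and -5.31 (male and female *Pparg-cKO*), and neither pool of the female control array was well above background. Limma's test of *S100a9* did not pass (adjusted p = 0.64 and 0.18). Other neutrophil markers did not all follow it. *Csf3r* differed with purmorphamine by 0.03 in control and by -0.05 in *Pparg-cKO* pools, and *S100a8* by 0.14 on the female control array. The median change over the tested neutrophil markers was -0.51 in control and -0.48 in *Pparg-cKO* pools.

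**Figure D2:**
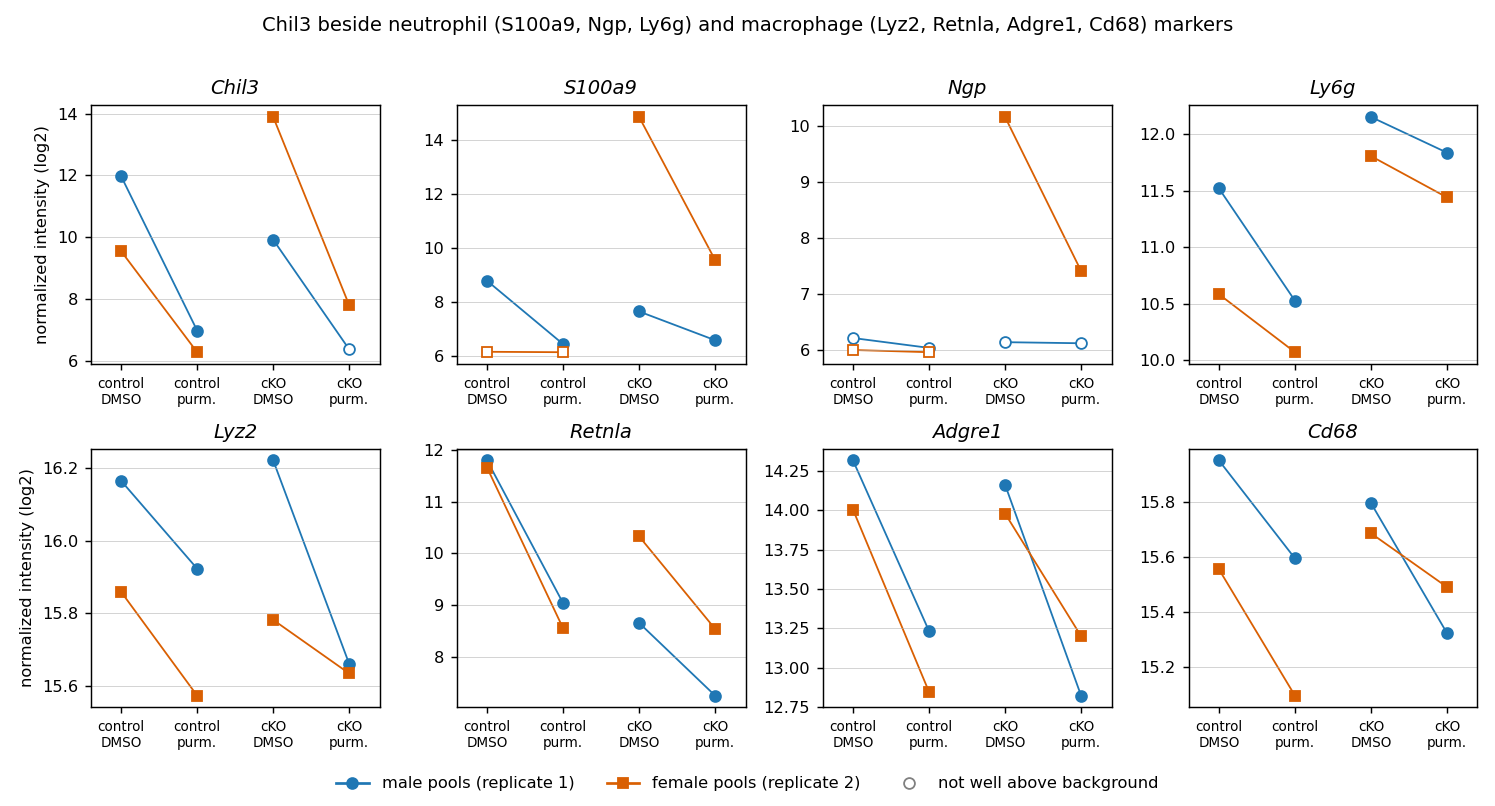
Normalized intensity (log2, y axis) of Chil3, of 3 neutrophil and of 4 macrophage markers in the 4 groups (x axis), each panel on its own scale, with circles for male and squares for female pools, lines joining the 2 pools of an array, and open symbols where the probe was not well above background. Chil3, S100a9 and Ngp are highest in the female Pparg-cKO DMSO pool, and Lyz2, Retnla and Adgre1 are lower with purmorphamine on each of the 4 arrays.

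Some macrophage markers fell in the same comparisons as *Chil3* and *Clca1*. Of the 10 tested macrophage markers, 3 fell in control pools (*Mrc1*, *Aif1* and *Retnla*) and 4 in *Pparg-cKO* pools (the same 3 and *Adgre1*), and 0 rose, against 1.42% and 4.89% of all genes called in these comparisons. *Lyz2*, *Cd68*, *Csf1r*, *Cx3cr1*, *Ptprc* and *Itgam* passed in neither. The summed intensity of all 11 macrophage markers on the array was 249869 and 203551 in the control DMSO pools against 171480 and 126468 with purmorphamine. In *Pparg-cKO* pools it was 238177 and 205457 against 145868 and 154422. The brightest marker was *Lyz2*, and the median change over the list was -0.74 in control and -0.62 in *Pparg-cKO* pools, against 0.02 and 0.00 over all genes tested. In pooled tissue, fewer cells of a type and less RNA per cell cannot be told apart. Of the 8 genes of the smooth muscle and mesenchyme list, limma called 0 with purmorphamine in either genotype (7 in each at an unadjusted p under 0.05, against 19.7% and 22.2% of all genes), with medians of 0.65 in control and 0.79 in *Pparg-cKO* pools. Their summed intensity, led by *Acta2*, was 300249 and 384442 in the control DMSO pools against 537912 and 523561 with purmorphamine, and 347235 and 326638 against 533746 and 600219 in *Pparg-cKO* pools. The part of these cells and of the macrophages in the falls of *Chil3* and *Clca1* was not tested. The macrophage calls depended on the processing: from processed signals limma called 0 of 20229 genes for purmorphamine in either genotype (3895 and 4469 at an unadjusted p under 0.05), and so 0 of these markers. In control pools 0 were called with no filter on dim probes or without the male or the female control array, and in *Pparg-cKO* pools 2 without the male and 1 without the female *Pparg-cKO* array. Of the mast cell and eosinophil list, limma called 0 of 5 tested genes in these comparisons (0 at an unadjusted p under 0.05), and the eosinophil granule genes *Prg2* and *Epx* were not well above background in any pool.

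*Clca1* and *Chil3* are textbook responders to interleukin 13 (IL-13) and IL-4, the type 2 cytokines, which act through receptors holding *Il4ra* and through the transcription factor *Stat6*. Some genes of this pathway fell with purmorphamine and others did not pass the test. The part of this pathway in the falls of *Clca1* and *Chil3* was not tested. Of 11 genes of type 2 cytokine signaling, all tested, 5 fell in control pools (*Il5*, *Il13*, *Il33*, *Il13ra2* and *Retnla*) and 4 in *Pparg-cKO* pools (all of these but *Il33*). Over all genes, 1.42% and 4.89% were called. *Il4*, *Il25*, *Tslp*, *Il4ra*, *Il13ra1* and *Stat6* passed in neither. None rose, and the list median was -1.02 in control and -0.58 in *Pparg-cKO* pools. *Il13* read 9.13 and 9.39 in the control DMSO pools and 6.75 and 6.69 with purmorphamine (-2.54 ± 0.12, SE, adjusted p = 0.0129). In *Pparg-cKO* pools it read 8.66 and 8.80 with DMSO and 6.49 and 6.59 with purmorphamine, neither of these well above background, a fall of at least 4.56-fold (adjusted p = 0.0108). All 4 purmorphamine pools were below all 4 DMSO pools. *Il5*, the eosinophil growth factor, fell by 2.05 in control (adjusted p = 0.0204) and by 1.52 in *Pparg-cKO* pools (adjusted p = 0.0174). *Il33*, an epithelial and stromal alarmin, fell by 1.12 in control pools (adjusted p = 0.0379) and differed by -0.39 in *Pparg-cKO* pools (adjusted p = 0.14), and the difference between these effects did not pass the test (0.73, adjusted p = 1). From processed signals 0 genes of this list were called in either genotype. In control pools 1 was called with no filter on dim probes and 0 without the male or the female control array, and in *Pparg-cKO* pools 2 without the female *Pparg-cKO* array.

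*Il13ra2*, the decoy receptor of IL-13, changed by -2.82 in control (adjusted p = 0.0204) and by -2.34 in *Pparg-cKO* pools (adjusted p = 0.0172). With purmorphamine it lay near the lowest signal above background, at 6.56 and 6.44 in control pools. The *Pparg-cKO* purmorphamine pools read 6.42 and 6.83, the first of these not well above background. *Retnla*, a secreted product of alternatively activated macrophages that is also on the macrophage list, read 11.80 and 11.66 in the control DMSO pools and 9.04 and 8.55 with purmorphamine, and 8.66 and 10.33 against 7.25 and 8.54 in *Pparg-cKO* pools. It fell on each array, with a mean change of -2.93 in control (adjusted p = 0.0129) and of -1.60 in *Pparg-cKO* pools (adjusted p = 0.0182), and the difference between these effects did not pass the test (1.33, adjusted p = 0.858). The transducers did not pass the test: *Stat6* differed by 0.02 and 0.11, *Il4ra* by -0.91 and -0.44, and *Il13ra1* by -0.69 (adjusted p = 0.0656) and -0.58 (adjusted p = 0.0531) in control and *Pparg-cKO* pools. With *Pparg* loss, limma called 0 of the 11 genes in either treatment, and 4 with DMSO and 1 with purmorphamine had an unadjusted p under 0.05, against 15.7% of all genes in each.

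**Figure D3:**
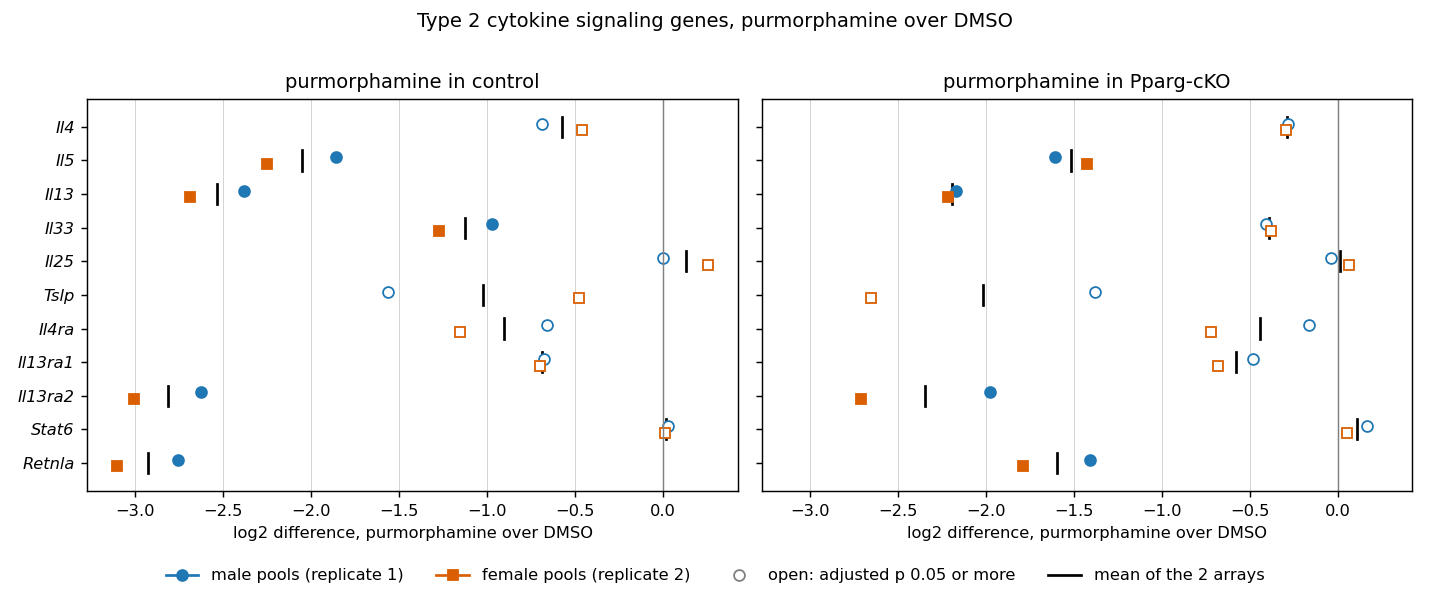
Log2 difference of purmorphamine over DMSO (x axis) within each array for the 11 genes of type 2 cytokine signaling (y axis), in control (left) and Pparg-cKO (right) pools. Circles are the male and squares the female arrays, bars their mean, and filled symbols mark genes with an adjusted p under 0.05. Il13 lies between -2.69 and -2.17 on all 4 arrays, and Stat6 near 0.

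The promoter of *Chil3* is shown because it is the gene with a large fall for which the RefSeq table gave one. RefSeq promoters (build GRCm38.p6) were found for 7 of the 10 genes, and all 10 symbols matched a RefSeq gene. The 250 bases before the start of *Chil3* (chr3:106167565-106167814, minus strand) hold 1 match to TTCNNNGAA, the palindrome that STAT factors bind, in capitals, beginning 172 bases before the start. The 250 bases before a start of *Bpifb1* (chr2:154200130-154200379, plus strand) hold 1 match, beginning 146 bases before the start, and a second *Bpifb1* start holds 0. The 250 bases of *Agr2* (chr12:35992675-35992924, plus strand) hold 0 matches to any of the motifs searched.
Chil3: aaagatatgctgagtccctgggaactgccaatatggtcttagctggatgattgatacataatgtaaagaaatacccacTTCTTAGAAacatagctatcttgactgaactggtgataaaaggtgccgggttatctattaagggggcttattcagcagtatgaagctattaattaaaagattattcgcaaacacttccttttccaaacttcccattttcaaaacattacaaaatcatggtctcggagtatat
Bpifb1: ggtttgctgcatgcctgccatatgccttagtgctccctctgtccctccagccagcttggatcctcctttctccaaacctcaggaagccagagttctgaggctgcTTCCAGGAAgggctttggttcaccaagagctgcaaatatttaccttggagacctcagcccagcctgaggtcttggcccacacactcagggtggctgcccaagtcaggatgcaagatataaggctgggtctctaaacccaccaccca
Agr2: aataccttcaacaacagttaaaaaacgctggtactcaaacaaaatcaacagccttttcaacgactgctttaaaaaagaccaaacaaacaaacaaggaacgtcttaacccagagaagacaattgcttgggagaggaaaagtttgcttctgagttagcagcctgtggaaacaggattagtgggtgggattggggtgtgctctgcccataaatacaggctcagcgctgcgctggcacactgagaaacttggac

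Read on both strands, TTCNNNGAA was in 7.02% of all 32851 windows of 250 bases and in 2 of the 7 genes with a promoter, *Chil3* and *Bpifb1*. The same half-sites TTC and GAA set 4 bases apart, the spacing STAT6 prefers, were in 5.85% of them and in 0 of the 7 genes with a promoter. The GLI motif GACCACCCA was in 0.225% and the PPAR motif, AGGTCA repeated after 1 base, in 0.0335%, both in 0 of the 7 genes. The FOXA motif TGTTTAC was in 3.17% and, of the 7, in *Muc20*. None of the motifs holds another of them. A match is not a bound site, and these windows cover only the stretch next to the start.

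*Bpifb1* is a secreted protein of the BPI fold family that airway goblet and gland cells release. With *Pparg* loss it moved the opposite way from *Agr2* and *Muc20*. Its probe lies at chr2:154046044-154046103 (mm9, plus strand). The control DMSO pools read 13.37 (male) and 12.00 (female), and the *Pparg-cKO* DMSO pools 8.66 and 9.38. With purmorphamine the control pools read 12.09 and 11.24, and the *Pparg-cKO* pools 7.81 and 8.31. All 4 *Pparg-cKO* pools lay below all 4 control pools, and each array's purmorphamine pool lay below its DMSO pool. The fall with *Pparg* loss was -3.66 ± 0.50 (SE) with DMSO, 12.7-fold (adjusted p = 0.0128), which was known from these arrays when the genes were listed. With purmorphamine, in other pools, it was -3.60 ± 0.50, 12.1-fold (adjusted p = 0.0194). From the scanner's processed signals both calls were lost (adjusted p = 0.0537 and 0.0633). Without any 1 of the 4 arrays they were lost too, with adjusted p from 0.0544 to 0.0741 with DMSO and from 0.0584 to 0.14 with purmorphamine, and a fold change of -2.96 or larger in size throughout. With purmorphamine it changed by -0.96 ± 0.16 in *Pparg-cKO* pools (adjusted p = 0.045), a call lost under 4 of the other settings and without either *Pparg-cKO* array (0.0326 to 0.285 over all settings). In control pools the difference was -1.03 ± 0.16 (adjusted p = 0.0669), and the difference between these effects did not pass the test (0.07, 95% interval -0.52 to 0.65, adjusted p = 1). The other *Bpifb1* probe, which overlaps the first, gave -3.70, -3.77, -1.02 and -1.09 in the 4 comparisons.

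Most relatives of *Bpifb1* were too dim to test. Of 14 other BPI fold genes on the array, 3 were tested and limma called 0 of them (0 also at an unadjusted p under 0.05 in the 4 comparisons between groups), the brightest being *Bpifc* with differences from -0.01 to 0.07. The 5 genes most like *Bpifb1* over the 8 pools were *Galnt6* (r = 0.990), *Defb45* (0.989), *Ldoc1* (0.988), *Gm6904* (0.983) and *Duoxa1* (0.979), among the same 817 genes. *Galnt6*, an enzyme that starts O-glycan chains on mucins, fell with *Pparg* loss by 1.72 with DMSO (adjusted p = 0.0258) and by 1.83 with purmorphamine (adjusted p = 0.0279).

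*Agr2*, the protein disulfide isomerase that mucin folding needs, rose with *Pparg* loss in both treatments. It read 8.72 and 8.61 in the control DMSO pools and 10.56 and 10.53 in the *Pparg-cKO* DMSO pools. With purmorphamine it read 8.00 and 8.30 in control and 9.83 and 9.75 in *Pparg-cKO* pools. The probe lies at chr12:36730506-36730565 (mm9, plus strand). The genotypes did not overlap, and male and female pools lay close together in each group. The rise was 1.88 ± 0.12 (SE), 3.69-fold, with DMSO (adjusted p = 0.00132) and 1.64 ± 0.12, 3.12-fold, with purmorphamine (adjusted p = 0.0036). With DMSO it passed the test without any 1 array (adjusted p up to 0.0482), and with purmorphamine it did not without the male control (adjusted p = 0.0596) or the male *Pparg-cKO* array (adjusted p = 0.0599; 0.00365 to 0.0599 over all settings). With purmorphamine *Agr2* changed by -0.76 ± 0.13 in *Pparg-cKO* pools (adjusted p = 0.0498), a call lost under 4 of the other settings and without either *Pparg-cKO* array (0.0372 to 0.333 over all settings). In control pools the difference was -0.52 ± 0.13 (adjusted p = 0.138).

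*Muc20*, a small transmembrane mucin of the kidney, rose with *Pparg* loss as *Agr2* did. It read 8.22 and 7.95 in control and 9.37 and 9.60 in *Pparg-cKO* pools with DMSO, and 7.86 and 7.86 against 9.45 and 9.53 with purmorphamine. The probe lies at chr16:32786143-32786202 (mm9, minus strand). The genotypes did not overlap, and the mean differences with purmorphamine were -0.22 ± 0.12 in control (adjusted p = 0.398) and 0.00 ± 0.12 in *Pparg-cKO* pools (adjusted p = 0.998). The rise was 1.40 ± 0.13 (SE), 2.64-fold, with DMSO (adjusted p = 0.0039) and 1.63 ± 0.13, 3.08-fold, with purmorphamine (adjusted p = 0.00405). The first call was lost without the female control array (adjusted p = 0.0698; 0.00397 to 0.0698 over all settings), and the second without the male control (0.0671), female control (0.0795) or male *Pparg-cKO* array (0.0501; 0.00416 to 0.0795 over all settings). Its other probe was not well above background in any pool.

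*Muc4*, a long transmembrane mucin, is the neighbour of *Muc20* and overlaps it in the RefSeq annotation. Its probe lies at chr16:32782278-32782337 (mm9, plus strand). It read 6.16 and 6.2 in the control DMSO pools and 6.14 and 6.13 in the control purmorphamine pools, none of them well above background. It was well above background in both *Pparg-cKO* DMSO pools (6.85 and 7.39) and, with purmorphamine, in the female (6.64) and not in the male *Pparg-cKO* pool (6.56). It passed the filter on dim probes only through the group where it was high. Its level with *Pparg* loss in DMSO was at least 1.61-fold higher, which is given as a description, since the filter kept the gene for that height. The other *Muc4* probe, in which no pool was well above background, differed by 0.09 in both treatments.

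*Agr2* followed *Muc20* (Pearson's r = 0.94) over the 8 pools and ran against *Bpifb1* (-0.80), as a description over pools that share arrays and genotype. Urothelial markers changed in the same comparisons. With *Pparg* loss in DMSO, 1 of the 14 rose (*Epcam*, a pan-epithelial adhesion protein, by 0.61) and 4 fell, namely *Krt20*, the keratin of superficial cells (-3.70), and the uroplakins *Upk1a* (-1.34), *Upk1b* (-1.31) and *Upk3b* (-1.83), where 3.8% of all genes were called. With purmorphamine, *Epcam* rose by 0.76 and *Krt20*, *Upk3b* and the basal cell factor *Trp63* fell (-2.42, -1.07 and -1.11), where 3% of all genes were called. Among the settings counted next, the reading of *Pigr* by its chromosome 1 probe repeats the reported calls of these genes. Of 12 settings, the one reported included, *Pparg* loss with DMSO called *Epcam* in 4, *Upk1a* in 5, *Upk1b* in 8, *Krt20* in 10 and *Upk3b* in 11, and *Pparg* loss with purmorphamine called *Upk3b* in 5, *Epcam* in 6, *Krt20* in 7 and *Trp63* in 8. Without the female control array 0 of the 14 were called with *Pparg* loss in either treatment. The summed intensity of the 14 was 545925 and 606847 in the control DMSO pools against 469425 and 522469 in the *Pparg-cKO* DMSO pools, and their brightest gene, *Krt5*, differed by 0.19 (adjusted p = 0.831). The part of these cells in the changes of *Bpifb1*, *Agr2*, *Muc20* and *Muc4* was not tested. Within *Pparg-cKO* pools, purmorphamine called 5 of the 14 higher, among them *Krt20* and the 3 uroplakins named, and *Epcam* lower, where 4.89% of all genes were called, and 0 of the 14 from processed signals. Within control pools it called *Upk1b* higher (0.89, adjusted p = 0.0478) and *Epcam* lower (-0.96, adjusted p = 0.0453), where 1.42% of all genes were called. Of the 14, 9 had an unadjusted p under 0.05 there, against 19.7% of all genes. Neither control call was made from processed signals or with the replicate block.

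**Figure D4:**
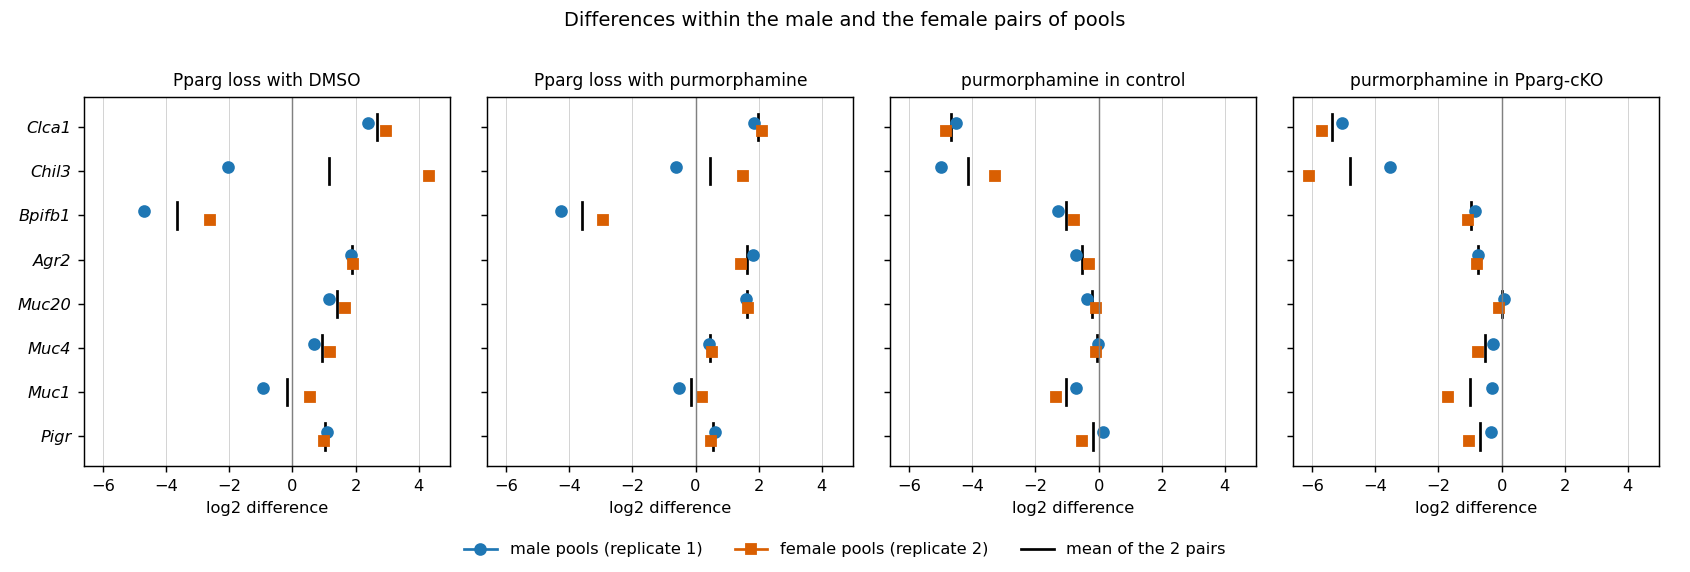
Log2 difference (x axis) within the male (circles) and the female (squares) pair of pools for 8 genes (y axis) in the 4 comparisons, with bars at the mean of the 2 pairs and Pigr read by its chromosome 1 probe. Clca1 and Chil3 lie between -6.09 and -3.27 in both purmorphamine panels, Bpifb1 between -4.71 and -2.61 in both panels of Pparg loss, and Chil3 has pairs of opposite sign there.

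*Muc1*, the broadly expressed transmembrane mucin (probe at chr3:89034965-89035024, mm9, plus strand), did not pass the test in any comparison. Its pools read 9.92 and 9.43 in control with DMSO and 9.21 and 8.08 with purmorphamine, and 8.98 and 9.99 against 8.67 and 8.29 in *Pparg-cKO* pools. Each array's purmorphamine pool was the lower, with differences of -0.71 and -1.35 on the control and -0.31 and -1.70 on the *Pparg-cKO* arrays. The mean differences with purmorphamine were -1.03 ± 0.36 (SE, adjusted p = 0.213) in control and -1.0 ± 0.36 (adjusted p = 0.192) in *Pparg-cKO* pools, where leaving out the male *Pparg-cKO* array gave -1.70 (adjusted p = 0.0286; up to 0.985 over all settings). With *Pparg* loss the sexes went opposite ways, and the 95% interval with DMSO was -1.27 to 0.90.

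*Pigr* was read by 2 probes that disagree. The brighter one, which the rule of the brightest probe takes, is placed by the array files at chr19:5932558-5932617 (mm9, minus strand), between probes of *Cdc42ep2* and *Pola2*. The dimmer one lies at chr1:132748041-132748100 (mm9, plus strand), between probes of *Fcamr* and *Fcmr*, which are also the neighbours of *Pigr* in RefSeq. The chromosome 1 probe read 6.85 and 7.62 in control and 7.95 and 8.61 in *Pparg-cKO* pools with DMSO, and 7.0 and 7.10 against 7.63 and 7.58 with purmorphamine. The genotypes did not overlap within a treatment, with differences of 1.04 ± 0.29 (SE, adjusted p = 0.13) and 0.56 ± 0.29 (adjusted p = 0.442), neither of which passed the test. The chromosome 19 probe differed by -0.33 ± 0.31 (adjusted p = 0.721) and 0.22 ± 0.31 (adjusted p = 0.833), with genotypes that overlapped in both treatments. Which of them reads *Pigr* RNA in this tissue was not tested.

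The gel-forming mucin *Muc5b* and the trefoil peptide *Tff3* were each well above background in 1 of the 8 pools. For *Muc5b* this was the female *Pparg-cKO* DMSO pool, at 6.83, and for *Tff3* the female control DMSO pool, at 6.82. The other 7 pools of each gene missed the rule of over 2 of 4 spots well above background. For *Muc5b*, the male *Pparg-cKO* DMSO pool had 2 of 4 such spots, at 6.44. Of the other gel-forming mucins, *Muc2* was tested and showed -0.17 with *Pparg* loss in DMSO (adjusted p = 0.647), while *Muc5ac* and *Muc19* did not pass the filter.

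Over the 8 genes that were not chosen on purmorphamine, of which 6 were tested, *Pparg* loss with DMSO called *Agr2* and *Muc20* higher, where 3.8% of the 20229 genes tested were called. *Muc4* (higher) and *Bpifb1* (lower) passed the threshold too, but the first was kept by the filter for its height in that group and the fall of the second was known when the genes were listed, so neither counts as support. All members were listed with earlier results of these arrays known, so the calls of *Agr2* and *Muc20* describe these pools only. *Pparg* loss with purmorphamine called *Agr2* and *Muc20* higher and *Bpifb1* lower, against 3% of all genes. The fall of *Bpifb1* with *Pparg* loss was already known from the DMSO pools, so it does not count as support here either. Purmorphamine called 0 of them in control pools, against 1.42% (4 had an unadjusted p under 0.05, against 19.7% of all genes, with *Pigr* read by its chromosome 19 probe), and *Agr2* and *Bpifb1* lower in *Pparg-cKO* pools, against 4.89%. The whole group was listed with the purmorphamine falls in view, so nothing is read from the last 2 counts. For the difference between the purmorphamine effects of the genotypes, limma called 0 of 20229 genes (0%), the lowest adjusted p being 0.858, and 667 genes had an unadjusted p under 0.05. The genotype comparisons share pools with the purmorphamine comparisons, and the members' values in them are not independent.

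Secretory genes outside the 10 gave the following counts, to be read against the 3.8% and 3% of all genes called for *Pparg* loss with DMSO and with purmorphamine and the 1.42% and 4.89% for purmorphamine in control and *Pparg-cKO* pools. Of 15 goblet and secretory cell genes, all on the array, 9 were tested, and 2 rose with *Pparg* loss in DMSO: *Ern2*, the stress sensor kinase of goblet cells, by 1.24 (adjusted p = 0.00451; 1.33 with purmorphamine, adjusted p = 0.00602), and *Fcgbp*, an IgG Fc-binding mucus protein, by 1.17 (adjusted p = 0.0169; 0.84 with purmorphamine, adjusted p = 0.0593). The goblet cell regulators *Spdef* and *Foxa3* differed by 0.52 (adjusted p = 0.084) and 0.53 (adjusted p = 0.0589) with DMSO, and the list median was 0.06 against 0.00 over all genes. Purmorphamine called 0 of the 9 in limma's test in either genotype, and 4 in control and 3 in *Pparg-cKO* pools had an unadjusted p under 0.05, against 19.7% and 22.2% of all genes. Of 14 tested genes of mucin O-glycosylation, 1 fell with *Pparg* loss in each treatment (*Galnt6*), and with purmorphamine in *Pparg-cKO* pools *Galnt6* fell by 0.70 (adjusted p = 0.0379) while *Gcnt3*, a branching enzyme, rose by 1.35 (adjusted p = 0.0476). Of 3 other tested mucins, *Muc13* fell with purmorphamine in *Pparg-cKO* pools by 0.58 (adjusted p = 0.0465) and differed by -0.64 in control pools (adjusted p = 0.0656). Of 6 tested airway and gland genes, *Lcn2*, an iron-sequestering defence protein, fell with purmorphamine by 1.67 in *Pparg-cKO* pools (adjusted p = 0.0361) and differed by -1.63 in control pools (adjusted p = 0.0627). *Sftpd*, a collectin of airway fluid, passed the filter on dim probes only through the *Pparg-cKO* groups, where it was high. With DMSO it read 6.52 and 6.50 in control, the second not well above background, and 8.06 and 8.75 in *Pparg-cKO* pools. With purmorphamine it read 6.54 and 6.46 in control, the first not well above background, and 7.74 and 7.69 in *Pparg-cKO* pools. These levels are a description, and the calls of *Sftpd* counted below are not support. These calls depended on the processing. Among the settings counted next, the reading of *Pigr* by its chromosome 1 probe repeats the reported calls of these genes. Of 11 settings, the one reported included, purmorphamine in *Pparg-cKO* pools called *Muc13* in 3, *Galnt6* in 5, *Lcn2* in 7 and *Gcnt3* in 8, none of them from processed signals or without the female *Pparg-cKO* array. Of 12 settings, *Pparg* loss with DMSO called *Galnt6* in 6, *Fcgbp* in 8 and *Ern2* and *Sftpd* in 10, and without the female control array none of the calls with *Pparg* loss in these lists was made. *Lcn2* was also among the 5 genes most like *Chil3* over the 8 pools (r = 0.969), after *Tnip3* (0.987), *Tprg* (0.985), *Olfm4* (0.981) and *Enpp3* (0.974).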

How the data were processed

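RNA of 8 pools was measured on 4 two-colour arrays. Scanner files deposited by the authors hold spot intensity per channel (Feature Extraction, version 10.7.3.1 in the submitters' processing notes and 12.2.0.7 per the file headers; mm9 coordinates). The deposited value table holds a score, the signed fold of purmorphamine over DMSO, which correlated with the scaled ratios at r of 0.9953 or more. The log10 ratio per the file headers served only to check dye direction. Intensities were corrected with normexp (offset 50), loess within arrays and Aquantile between arrays in limma 3.58.1 (R 4.3.3). Purmorphamine was tested on within-array ratios, and *Pparg* loss in a separate-channel fit (intraspot correlation 0.064), over 20229 genes, each by the brightest of its probes among 27064 that passed the filter on dim probes (over 2 of 4 spots flagged well above background, in the male and female pool of some group). P-values were adjusted by Benjamini-Hochberg over all genes, with 0.05 as the threshold. Bounds ("at least") set the brighter group's mean against the lowest signal above background on each array or the dim probe's own, whichever was higher. The fit was tested on simulated data. The number of arrays limits the precision, and 66.3 to 70.5% of spots were well above background. Members and lists were chosen with earlier results of these arrays known. Of the lists' genes, 1 is not reported here and was left out of its lists. Named were the 10 members, list genes past the threshold and each list's brightest gene, the 5 closest profiles and a few relatives chosen after their values were seen. Alternatives were processed signals, other centring, no filter, probe means, the replicate block, arrays left out and the methods' rule (intensity over 100, fold of 1.5 on both arrays).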

Additional observations from a re-analysis of the deposited data

Results flagged for a closer look

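*Pigr*, read by its brighter probe on chromosome 19, was lower with purmorphamine on both control arrays (-0.26 and -0.76) and slightly higher on both *Pparg-cKO* arrays (0.05 and 0.01). The purmorphamine effect thus differed between the genotypes by 0.55 on the log2 scale, and limma's test of that difference did not pass (adjusted p = 1). The same 0.55 is the difference between the effects of *Pparg* loss, which were -0.05 and -0.60 in the male and female pairs with DMSO and 0.27 and 0.17 with purmorphamine. The chromosome 1 probe differed the other way, by -0.49 (adjusted p = 1).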

How the results depend on the processing

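Of the 8 genes other than *Clca1* and *Chil3*, *Pparg* loss with DMSO called 4 with *Muc4*, and 2 from processed signals. *Pparg* loss with purmorphamine called 3. Purmorphamine in control pools called 0, and 2 by the methods' rule, by which 988 of 29924 genes changed. Purmorphamine in *Pparg-cKO* pools called 2, and 0 from processed signals, with quantile scaling and median centring, with no filter on dim probes, and with the replicate block. Leaving out each array in turn gave 1 to 3, 0 to 2, 0 to 1 and 0 to 2 calls in these 4 comparisons, with the lone pool of the reduced group assumed to vary like the others. The cause of these changes was not tested, except that a group then holds 1 pool. Among the values of single tested genes under the alternatives, 33 lost their call and 3 gained one, and 21 changed sign, all of them with no call before or after (8 of *Pigr*, 7 of *Muc1*, 5 of *Bpifb1* in the difference between genotypes and 1 of *Muc20*). Of *Chil3*, described without a test, 5 values changed sign, all without an array, and of *Clca1* 0. In the replicate block, replicate numbers stand for sex and dye orientation. The deviations of same-numbered pools correlated at -0.15 with DMSO and 0.47 with purmorphamine, so the treatments differ in this and whether the numbers pair the pools was not settled. The block moved the calls for purmorphamine in control pools from 288 to 172 genes (72 to 31 higher and 216 to 141 lower), and the total of no other comparison by over 1.5 times. Other settings moved these totals further. With no filter on dim probes, purmorphamine called 13 genes in control and 310 in *Pparg-cKO* pools, against 288 and 989. Leaving out each array in turn gave 40 to 425 genes for *Pparg* loss with DMSO (768 with all), 16 to 331 with purmorphamine (606), 0 to 594 for purmorphamine in control (288, with 2 and 0 without the male and the female control array) and 153 to 1065 in *Pparg-cKO* pools (989, with 153 without the female *Pparg-cKO* array), so the shares of all genes called move likewise. A block with the numbers of the *Pparg-cKO* arrays crossed, added after seeing the data, called 600 and 442 genes for *Pparg* loss with DMSO and with purmorphamine, and 4 and 3 of the 8. Reading *Pigr* by its chromosome 1 probe, also added later, moved no count of members. Quantile scaling together with median centring gave a median over all genes of 0.14 for purmorphamine in control pools, against 0.02 (178 higher and 119 lower, against 72 and 216), and processed signals called 0 genes for purmorphamine in either genotype, called 500 for *Pparg* loss with DMSO against 768, and split *Pparg* loss with purmorphamine into 117 higher and 118 lower, against 242 and 364.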
